A study of Rattus norvegicus with 3 samples.

Results

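The cells described here are 1317 endothelial cells, the cells that line blood vessels, among 30641 cells of the rat cochlea. They come from 3 single-cell libraries of Sprague-Dawley rats, 1 library each from postnatal day 1 (P1), P7 and P14. The animals were untreated, and 40 rats of either sex were pooled for each stage. All 3 libraries carry the label greater epithelial ridge cell, but the study dissociated the whole basal membrane after separating off the spiral ganglion, the spiral ligament and the stria vascularis, with no sort for one cell type. Each cell was chosen by its own unique molecular identifiers (UMIs), which count mRNA molecules. A cell entered when Cldn5, Cdh5, Kdr, Flt1, Tek, Esam and Egfl7 together gave 3 or more UMIs and 20 or more per 10000 UMIs, with at most 1 UMI of the pericyte gene Rgs5. Barcodes with 500 or fewer genes, with 5000 or more, or with 25% or more mitochondrial UMIs were left out first.

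Endothelial cells form a continuous sheet joined by tight and adherens junctions. In the brain and the inner ear much of this sheet is a barrier, in which carriers such as Slc2a1, the glucose transporter, move solutes across and efflux pumps return others to the blood. Other endothelium carries Plvap, the protein of the diaphragms of fenestrae and caveolae, and is more permeable. Arteries, capillaries and veins differ in the genes their endothelium uses, and sprouting tip cells lead the growth of new vessels.

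The selected cells, called members here, numbered 149 of 12779 cells at P1, 199 of 12581 at P7 and 969 of 5281 at P14. Their share was 1.17% at P1 (exact binomial 95% interval 0.987% to 1.37%), 1.58% at P7 (1.37% to 1.82%) and 18.3% at P14 (17.3% to 19.4%). Intervals here cover counting error only. Each stage has 1 library, so no difference between stages was tested and stage cannot be told apart from library. Members at P14 were shallow, with a median of 1165 UMIs against 8273 at P1 and 6485 at P7, while the summed UMIs were close, at 1583906, 1594743 and 1514208 for P1, P7 and P14. Leaving out the cells under 1000 UMIs, of which P14 had 735, put the P14 share at 626 of 4546 (13.8%), and thinning the rest to 1000 UMIs before the selection put it at 624 of 4546 (13.7%). Between libraries 53, 16 and 19 kept barcodes recurred (P1 with P7, P1 with P14, P7 with P14), and none of them was a member in both.

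Levels are counts per 1000000 (CPM) of the summed UMIs of a group of cells, and a run of 3 values gives P1, P7 and P14 in that order. Ratios are log2 ratios with 10 CPM added to both sides, which makes the differences of low genes smaller. A gene was counted as higher or lower at 2-fold on that scale, among genes at 10 CPM or more in either profile and without the 7 selecting genes and Rgs5. A gene under 10 CPM in one profile could thus be counted only as higher in the other. Of the selecting UMIs, Cldn5, the claudin of endothelial tight junctions, gave 52.9%, 50.8% and 40.4%, and Cdh5, the cadherin of endothelial adherens junctions, gave 12.1%, 10.0% and 13.5%.

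The endothelial label was compared with 12 markers that the selection had not summed (Plvap, Tie1, Erg, Sox18, Ecscr, Eng, Robo4, Ramp2, Adgrf5, Adgrl4, Ptprb and Cd93). At least 3 of them had a UMI in 145 of 149 members at P1 (97.3%), 165 of 199 at P7 (82.9%) and 860 of 969 at P14 (88.8%). The same was true of 2.76%, 4.41% and 4.10% of the other cells. In leukocytes, which should lack these genes and had median depths of 7491, 7071 and 2050 UMIs, the shares were 1.14%, 4.0% and 1.46%. Cells that had entered as members were left out of the leukocytes, so the selection set these low shares in part. Robo4, a guidance receptor of endothelium, was the exception, with 3, 0 and 1 UMIs over all members of each stage. These markers were read from the cells that had been selected, so they describe the cells and are no test of them.

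At P7 the label held less well. Cldn5 was the single selecting gene with a UMI in 28 P7 members, against 1 at P1 and 7 at P14. Of these 28 cells, 10 had none of the 12 markers and 3 had at least 3. Otor, a secreted protein of cochlear mesenchyme, was at 30882 CPM in them and at 814 CPM in the remaining P7 members. Plvap was at 11.4 against 1608 CPM, and Tie1, an endothelial receptor kinase, had 0 UMIs against 526 CPM. These cells thus carried mesenchymal and few endothelial transcripts. Without them the P7 share was 1.36%, a setting chosen after the data had been seen.

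**Figure D1:**
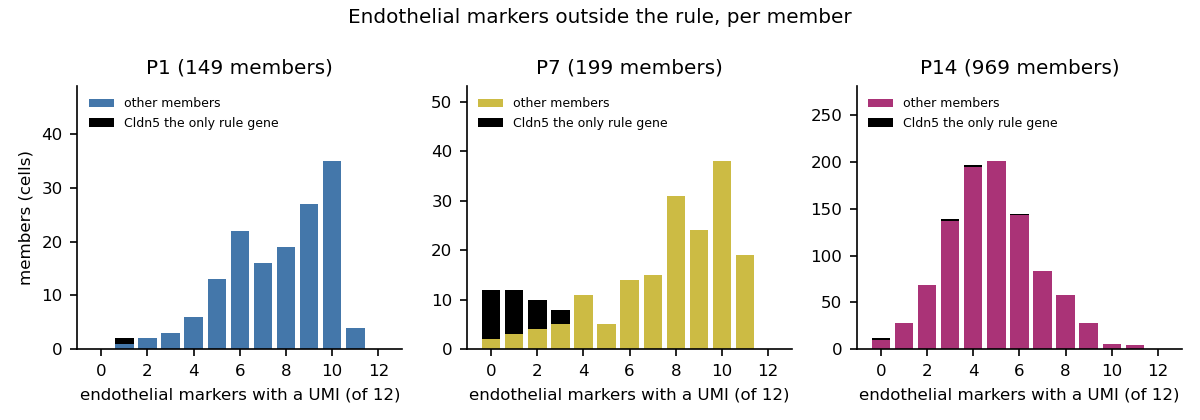
Number of 12 endothelial markers outside the selecting genes that had a UMI (x axis) against the number of members (y axis), at P1, P7 and P14. Black marks members whose single selecting gene was Cldn5, and at P7 these 28 cells lie at 3 markers or fewer.

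Cells near the lower limit of the selection were mixed. At P1, 8 members between 20 and 25 selecting UMIs per 10000 had Plvap at 1068 CPM and Otor at 2864 CPM, against 396 and 6221 CPM in 20 excluded cells between 15 and 20. At P7 the 18 cells just inside had Plvap at 195 CPM and Otor at 16125 CPM, and the 44 just outside 110 and 26491 CPM. At P14 Plvap was at 335 CPM in the 36 cells just inside and at 336 CPM in the 35 just outside.

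Markers of hair cells, the sensory cells of the cochlea, were close to absent. The 9 hair cell genes, among them Myo7a, Pou4f3 and Otof, gave 0 UMIs at P1, 1 at P7 and 4 at P14, and Myo7a, Pou4f3 and Otof were at 0 at every stage. Their sums were 0, 0.627 and 2.64 CPM in members and only 7.94, 1.04 and 6.81 CPM in the other cells. Low levels of these genes were thus not particular to members. A count of 0 allows up to 1.89, 1.88 and 1.98 CPM (3 counts). Melanocyte genes gave 1 UMI at each stage. RNA of glia and mesenchyme was present in larger amounts. The 6 glial markers summed to 159, 594 and 3058 CPM, against 1402, 5870 and 9320 CPM in the other cells, and 11.4%, 29.6% and 12.2% of members held at least 3 of these UMIs. The 8 markers of fibroblasts and mesenchyme summed to 636, 4820 and 2699 CPM, against 8582, 10856 and 13821 CPM in the other cells. At least 3 of these UMIs were held by 28.9%, 55.8% and 16.3% of members. Of the P7 sum 4112 CPM was Otor, which was at 814 CPM without the 28 cells selected on Cldn5 alone. Leukocyte markers (8 genes) were at 51.1, 41.4 and 172 CPM and those of pericytes and smooth muscle (10 genes) at 21.5, 35.7 and 269 CPM, below the other cells at each stage. The second sum includes Rgs5, which the selection held to at most 1 UMI, so that limit set it in part. Without Rgs5, 4 of 6 tested genes of this list were 2-fold or more lower in members at P1, 4 of 5 at P7 and 0 of 5 at P14. Over all genes 955 of 8201, 738 of 8333 and 841 of 9251 were lower. Hemoglobin made up 1.92%, 0.861% and 0.402% of member UMIs, and 11, 3 and 3 cells held 96.6%, 92.5% and 81.3% of it. In the other cells hemoglobin made up 0.139%, 0.454% and 0.932%, so members were above them at P1 and P7 and below at P14.

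**Figure D2:**
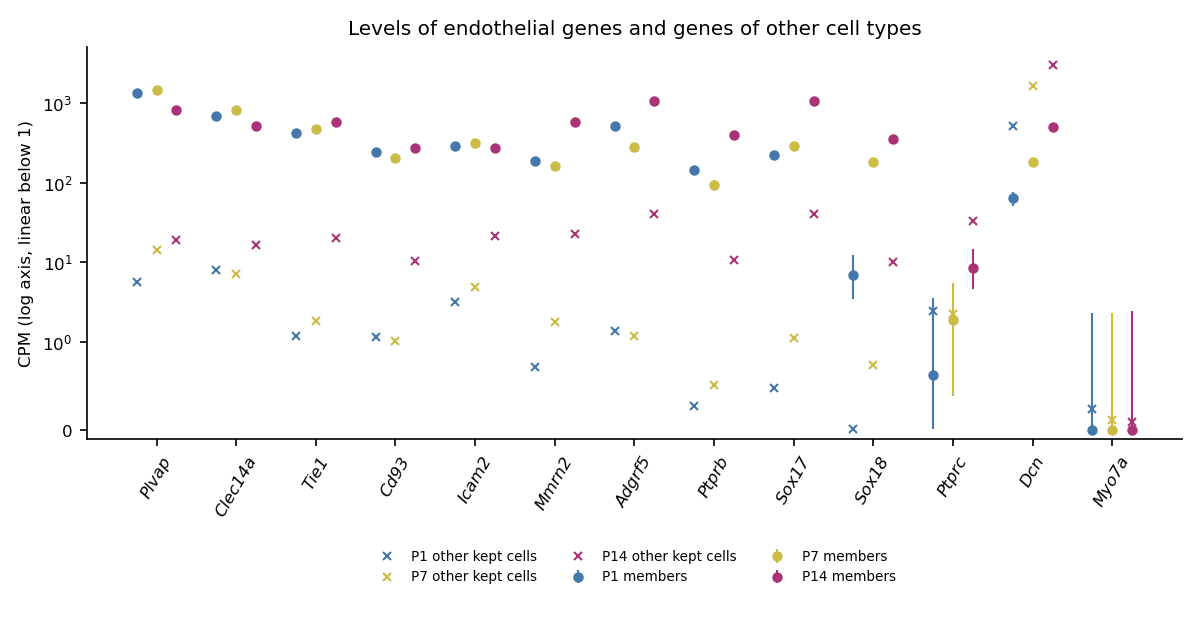
Level in CPM (y axis, logarithmic above 1 CPM and linear below) of endothelial genes and of genes of leukocytes (Ptprc), fibroblasts (Dcn) and hair cells (Myo7a). Circles are members with exact Poisson 95% intervals, crosses are the other kept cells of the same library, and Myo7a was at 0 UMIs in the members of every stage.

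Against the other cells of the same library, 722 of 8201 genes were 2-fold or more higher in members at P1 (8.80%), 609 of 8333 at P7 (7.31%) and 921 of 9251 at P14 (9.96%). Every tested gene of an endothelial identity list was among them, 22 of 22 at P1 and 23 of 23 at P7 and at P14, with medians of 3.90, 3.47 and 3.62 on the log2 scale. Over all genes the medians were -0.09, -0.09 and 0.06. Since the same cells were selected on endothelial transcripts, these counts are a description. Of this list 24 genes were in the matrices, and those under 10 CPM in both profiles were not tested. Tested genes under 10 CPM in the other cells, such as Tie1 at P1 and P7 (1.17 and 1.84 CPM), could be counted only as higher. Outside the selecting genes, 7 genes were among the 15 with the largest ratios at all 3 stages, namely Adgrf5, Clec14a, Cyyr1, Plvap, Slc2a1, Sox17 and Tie1.

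Plvap was at 1316, 1433 and 810.3 CPM in members against 5.63, 14.2 and 19.1 CPM in other cells. Clec14a, a lectin-like receptor of endothelium, was at 677, 813 and 519 CPM against 8.10, 7.13 and 16.3 CPM. Tie1 was at 422, 468 and 569 CPM against 1.17, 1.84 and 20.3 CPM. All 3 lay far above the other cells, in which their level was highest at P14. Sox17, a transcription factor of arterial endothelium, was at 222, 285 and 1065 CPM against 0.477, 1.13 and 40.2 CPM, and Adgrf5, an adhesion receptor, at 505, 279 and 1065 CPM against 1.38, 1.18 and 40.3 CPM. Sox17 and Adgrf5 thus had their highest member level at P14, where Plvap and Clec14a had their lowest.

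Promoters of the leading genes were read from RefSeq for rat assembly GRCr8, from 250 bases before to 50 after each gene's start. The expression files use the older build rn6, so these positions belong to GRCr8 alone. Of 25 genes that led at any stage 16 had a window, and of the 7 that led at all stages 6 had one. The letters AGGAAG, a form that ETS factors such as Erg bind, were searched on both strands, as were the letters AACAAT, which SOX factors bind. AGGAAG stood in 7 of 16 windows (43.8%) and in 2 of 6, against 34.5% of 33469 RefSeq windows of the same length. AACAAT stood in 2 of 16 (12.5%) and in 1 of 6, that of Cyyr1, against 11.7% of all windows. The windows of Plvap and Tie1 are shown because these endothelial genes led at every stage and held AGGAAG, at 2 places in Plvap and 1 in Tie1. Plvap lies at chr16:18231230-18231529 and Tie1 at chr5:137304932-137305231, both on the minus strand and written 5′ to 3′, with AGGAAG or its complement CTTCCT in capitals.
Plvap: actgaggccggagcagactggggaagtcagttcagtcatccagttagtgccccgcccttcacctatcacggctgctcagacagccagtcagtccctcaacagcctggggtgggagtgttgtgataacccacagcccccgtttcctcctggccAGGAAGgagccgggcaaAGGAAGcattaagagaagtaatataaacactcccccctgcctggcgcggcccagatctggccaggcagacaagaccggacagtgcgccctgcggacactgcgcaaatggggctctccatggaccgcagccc
Tie1: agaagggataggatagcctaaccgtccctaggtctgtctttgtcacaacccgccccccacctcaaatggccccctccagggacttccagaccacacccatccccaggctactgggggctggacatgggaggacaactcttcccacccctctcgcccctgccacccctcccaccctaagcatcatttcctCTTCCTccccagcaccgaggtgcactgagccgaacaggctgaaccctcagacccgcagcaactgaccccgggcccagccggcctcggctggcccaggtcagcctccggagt
A match of letters describes the sequence and shows no binding.

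Mural cells, the pericytes and smooth muscle cells that wrap the endothelium, were compared next. Against 326, 297 and 152 mural cells, 22 of 22, 23 of 23 and 18 of 23 endothelial identity genes were 2-fold or more higher in members, against 7.68%, 6.64% and 5.41% of all tested genes at P1, P7 and P14. Here too, genes under 10 CPM in the mural cells could be counted only as higher. When mural cells that themselves passed the limits on the selecting genes were left out, a choice made after the data were seen, 98 mural cells remained at P14 and the count there was 23 of 23. Barrier transporters were higher in members in 8 of 24 cases at P14 against all mural cells and in 21 of 24 against the stricter set, where 11.7% of all tested genes were higher. The selecting genes defined both the members and the stricter set, so that choice set these counts in part. The limit on Rgs5 had removed 2, 12 and 76 cells that passed on the selecting genes. The 76 at P14 carried the barrier carrier Slco1a4 at 2083 CPM and the pericyte receptor Pdgfrb at 552 CPM, against 2255 and 49.5 CPM in members.

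Within the members, fewer genes differed between P1 and P7 than between either and P14. From P1 to P7, 327 of 7832 genes were 2-fold or more higher (4.18%) and 196 lower (2.50%). From P7 to P14, 1435 of 8619 were higher (16.6%) and 404 lower (4.69%), and from P1 to P14, 1811 of 8571 were higher (21.1%) and 408 lower (4.76%). With every cell thinned to 1000 UMIs, shallower cells left out and members selected again (138, 185 and 624 cells), 1587 genes were higher and 964 lower from P1 to P7, and 2014 and 712 from P7 to P14. The thinned sums held 138000, 185000 and 624000 UMIs, so that the filter of 10 CPM stood for 1.38, 1.85 and 6.24 UMIs, and counts that low can differ 2-fold by counting error alone. The median gene moved by 0.09, 0.28 and 0.36 in these comparisons, against 0.10, 0.08 and 0.15 in the other cells. Relative to that median, 243 genes were higher and 260 lower from P1 to P7, 766 and 895 from P7 to P14, and 874 and 964 from P1 to P14. Subtracting the median evens these counts by construction. Without that subtraction higher genes were the majority under each scaling tried, by a different margin. The share of higher genes among those called was 62.5%, 78.0% and 81.6% by CPM, 56.7%, 67.7% and 68.7% with median-of-ratios size factors, and 60.2%, 63.5% and 67.4% with mitochondrial, ribosomal protein and hemoglobin genes left out of the total. Rps2, a ribosomal protein, was at 5897, 4708 and 1616 CPM in members and 5165, 4266 and 2208 CPM in the other cells.

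Transporters of the blood-brain type were mostly higher at P14. From P1 to P14, 20 of 24 were 2-fold or more higher and 1 was lower, against 21.1% and 4.76% of all genes, with a median of 1.47 against 0.36 over all genes. Some of the 20, among them Tfrc (1.89, 5.02 and 202 CPM) and Slc16a1 (1.26, 1.25 and 32.4 CPM), reached 10 CPM only at P14. These could be counted only as higher. Relative to the median of all genes, 14 higher and 1 lower were counted. In the other cells of the libraries the median of this list was 1.10. From P1 to P7, 4 of 20 were higher (Mfsd2a, Pltp, Slco1a4 and Slco2b1) and Abcg2 was lower, against 4.18% higher and 2.50% lower over all genes. From P7 to P14, 15 of 24 were higher and Slc38a5 was lower, against 16.6% and 4.69% of all genes.

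Slco1a4, an organic anion carrier of brain capillaries, was at 41.0 CPM at P1 (31.7 to 52.3), 159 at P7 (139.7 to 179) and 2255 at P14 (2180.3 to 2332). Without added CPM, P14 was 55.0-fold above P1 (43.0 to 71.4). With 10 CPM added the log2 ratio was 5.47 in members, against 3.48 in the other cells. After thinning to 1000 UMIs, a Slco1a4 UMI was found in 4.76%, 15.1% and 63.6% of members and in 0 of 174, 0 of 149 and 10 of 239 leukocytes. Members lay above leukocytes at each stage, but at P1 the intervals of the shares overlapped (1.94% to 9.57% against 0% to 2.10%). The intervals of the 3 CPM levels did not overlap. Without thinning the shares in members were 21.5%, 41.2% and 75.4%.

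Slc2a1 was at 543, 694 and 1308 CPM in members against 8.74, 11.2 and 59.0 CPM in other cells, and a UMI was found in 39.5%, 49.5% and 56.1% of thinned members. Its ratio of P14 to P1 was 1.25, smaller than that of Slco1a4. Slc7a1, a carrier of cationic amino acids, was at 43.6, 95.9 and 507 CPM. Slc6a6, the taurine transporter, was at 61.2, 95.9 and 602 CPM, and Slc39a10, a zinc importer, at 79.6, 119 and 740.3 CPM. These 3 carriers were highest at P14. The efflux pump Abcg2 followed another course, with 405, 183 and 845 CPM. Abcb4, a phospholipid transporter of the same ABC family, was at 74.5, 77.8 and 986 CPM. Tfrc, the transferrin receptor that brings in iron, had 3, 8 and 306 UMIs, which at P14 made 202 CPM (180.1 to 226).

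Mfsd2a, a lysolipid carrier that restrains vesicle transport, was at 37.9, 102 and 114 CPM, so its higher level was in place at P7. Slc38a5, a glutamine carrier, was the transporter that was lower at P14, with 99.1, 141 and 35.7 CPM in members and 2.52, 2.47 and 19.9 CPM in the other cells. Slco1c1, a thyroid hormone carrier, was at 88.4, 184 and 419 CPM in members and 30.0, 127 and 541 CPM in the other cells, so that at P14 the members were not the higher ones. Plvap differed by -0.81 on the log2 scale from P7 to P14, short of 2-fold. A Plvap UMI was found in 57.8%, 58.3% and 31.5% of thinned members and in 1 of 174, 1 of 149 and 2 of 239 leukocytes.

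**Figure D3:**
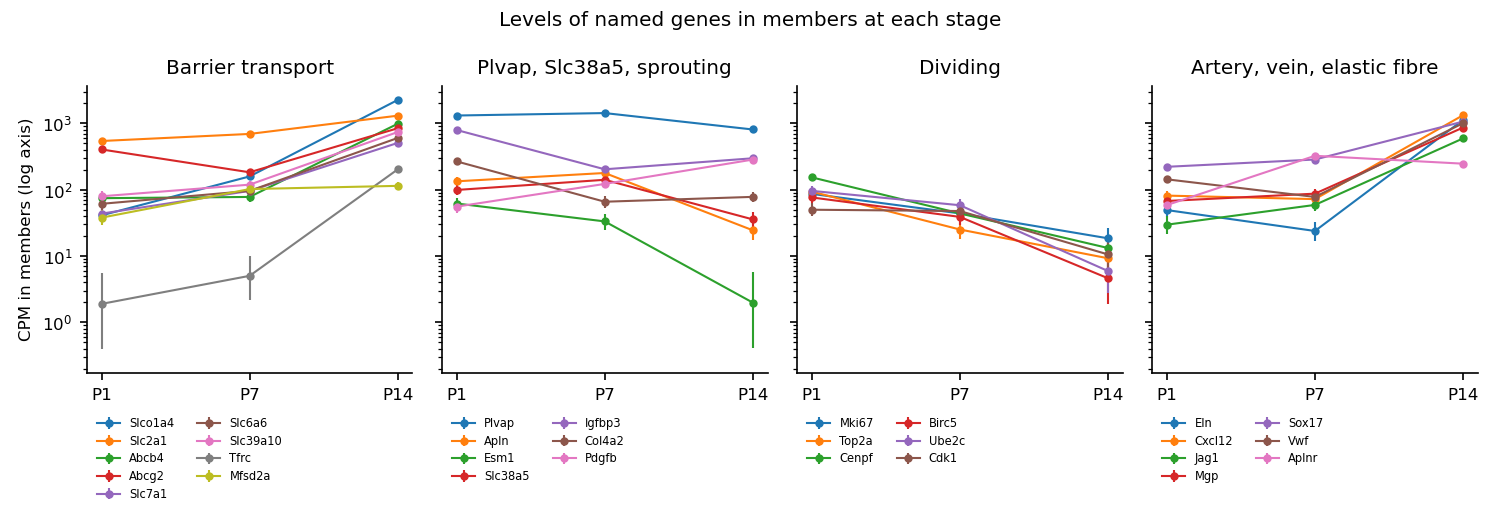
Level in CPM (logarithmic y axis) in the members of P1, P7 and P14 for barrier transporters, for Plvap, Slc38a5 and sprouting genes, for genes of dividing cells, and for genes of artery, vein and elastic fibre. Points are sums over the members of 1 library and bars are exact Poisson 95% intervals, with Slco1a4 going from 41.0 to 2255 CPM and Esm1 from 61.9 to 1.98 CPM.

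Junction genes were followed in the same way. From P1 to P14, 7 of 17 were higher, among them Cdh13, Ctnnd1, Gja1, Jam3, Ocln and Tjp1, and 0 lower, against 21.1% higher over all genes, and relative to the median 5 higher and 1 lower were counted. The list's median was 0.69 in members and 0.56 in the other cells. Tjp1, a scaffold of tight junctions, was at 128, 189 and 517 CPM, and Ocln, a membrane protein of the same junctions, at 58.7, 48.9 and 145 CPM. Of the genes of fenestrae and caveolae, 2 of 9 were higher (Cav2 and Cavin1) and Ehd2 was lower, a share near that of all genes, and relative to the median 2 higher and 2 lower were counted. Their median was 0.15 in members and 0.89 in the other cells. Cav1, the coat protein of caveolae, was at 566, 569 and 657 CPM.

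Part of the genes of arterial and of venous endothelium were higher at P14, in larger shares than the 21.1% of all genes. From P1 to P14, 7 of 13 arterial genes were higher and 0 lower, with a median of 1.24 (0.37 in the other cells). Of the venous genes 6 of 9 were higher and 0 lower, with a median of 1.75 (0.56), and of the capillary genes 7 of 9 were higher, with a median of 1.74 (0.54). The capillary genes Car4 (0, 0.627 and 38.3 CPM) and Cyp26b1 (4.42, 2.51 and 73.3 CPM) reached 10 CPM only at P14, as did the arterial gene Gja5. These could be counted only as higher. Relative to the median of all genes 6 genes of each of these lists were higher. Cxcl12, a chemokine of arterial endothelium, was at 81.4, 72.1 and 1327 CPM, and Jag1, a Notch ligand, at 29.7, 58.9 and 593 CPM. In the groups of P14 members described below, Cxcl12 was at 429 CPM in group 5, where most Gja5 UMIs lay. It was at 1887, 1971, 2642 and 5608 CPM in groups 1, 2, 6 and 8. Cxcl12 and Jag1 were found in more thinned members at P14, Cxcl12 in 5.44%, 6.77% and 40.6% and Jag1 in 4.76%, 7.81% and 36.3%. In leukocytes Cxcl12 was found in 0 of 174, 2 of 149 and 8 of 239, and Jag1 in 3 of 174, 0 of 149 and 7 of 239. The intervals of members and leukocytes overlapped for Jag1 at P1 and for Cxcl12 at P7. Gja5, the connexin of arterial endothelium, was at 0.631, 3.76 and 27.1 CPM.

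Eln, the elastin of arterial walls, was at 49.2, 23.8 and 1125 CPM in members and 47.5, 37.8 and 50.6 CPM in the other cells. Members and other cells thus had like Eln levels at P1 and differed 22.3-fold (20.2 to 24.6) at P14. An Eln UMI was found in 3.40%, 3.12% and 24.6% of thinned members and 0 of 174, 5 of 149 and 5 of 239 leukocytes, so the P7 share was no higher than that of leukocytes. Vwf, the carrier of a clotting factor, was at 143, 77.8 and 1006 CPM and had a UMI in 14.3%, 5.21% and 42.7% of thinned members.

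Aplnr, the apelin receptor, and Sox18, a relative of Sox17, were already higher at P7. Aplnr was at 58.7, 325 and 247 CPM, with a P7 to P1 ratio of 2.28 against 0.14 in the other cells. Sox18 had 11, 286 and 530 UMIs, or 6.94, 179 and 350.0 CPM. Its P7 to P1 ratio was 3.48, or 3.64 without the members selected on Cldn5 alone, against 0.10 in the other cells. A Sox18 UMI was found in 0.680%, 16.7% and 25.2% of thinned members and in 0 of 174, 0 of 149 and 0 of 239 leukocytes. Sox17, in comparison, was at 222, 285 and 1065 CPM.

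Genes of tip cells and sprouts differed in both directions. From P1 to P14, 3 of 16 were higher (Cxcr4, Dll4 and Pdgfb) and 4 lower (Apln, Col4a2, Esm1 and Igfbp3), with a median of -0.20. Over all genes 21.1% were higher and 4.76% lower, and relative to the median of all genes 1 higher and 5 lower of the list were counted. Apln, the ligand of Aplnr, was at 134, 179 and 24.4 CPM and was found in 13.6%, 7.81% and 1.60% of thinned members. Esm1, a secreted proteoglycan of tip cells, was at 61.9, 33.2 and 1.98 CPM. Both were lowest at P14. Pdgfb, which recruits pericytes, was at 55.6, 122 and 285 CPM. Col4a2, a chain of basement membrane collagen, was at 267, 65.8 and 77.9 CPM, and its ratio of P14 to P1 was -1.66 in members and -1.71 in the other cells. Igfbp3, a binding protein of insulin-like growth factors, was at 795, 203 and 298 CPM.

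Signalling pathways that act on endothelium were followed by list. Over all genes 21.1% were higher from P1 to P14, and the list counts are read against that share. In the Notch list 8 of 13 were higher at P14 than at P1 and Nrarp, a feedback inhibitor, was lower (137, 112 and 48.2 CPM), and relative to the median of all genes 6 higher and 2 lower were counted. The ligand Jag2 was at 39.8, 65.8 and 235 CPM and the receptor Notch1 at 137, 181 and 398 CPM. In the list of Wnt and norrin, the signals that set up the barrier in brain and retina, 11 of 16 were higher and 0 lower, with a median of 1.43 against 0.30 in the other cells. Relative to the median of all genes 9 higher and 0 lower were counted. Lef1, a transcription factor of the pathway, was at 58.7, 115 and 258 CPM, the coreceptor Lrp5 at 4.42, 32.0 and 100.4 CPM, and Tspan12, a coreceptor for norrin, at 76.4, 141 and 248 CPM. The levels of these 3 genes were larger at each later stage, but not always by 2-fold. Lrp5 passed 2-fold from P1 to P7, and Lrp5 and Lef1 from P7 to P14. Tspan12 passed it only from P1 to P14.

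In the list of BMP and TGF-beta signalling, 9 of 16 were higher at P14 than at P1 and 0 lower, or 7 higher and 0 lower relative to the median, against 21.1% higher over all genes. Id1, a direct target of BMP signals, was at 298, 481 and 1637 CPM in members and 259, 207 and 266 CPM in the other cells. An Id1 UMI was found in 23.1%, 33.9% and 69.2% of thinned members and 11 of 174, 6 of 149 and 20 of 239 leukocytes. Id3, a target of the same kind, was highest at P7, with 262, 1262 and 959.6 CPM. Among genes that respond to blood flow 1 of 10 was higher (Cyp1b1, whose direction turned without members holding 3 or more UMIs of another cell type) and 2 were lower (Edn1, and Aqp1, whose direction turned after thinning) from P1 to P7, against 4.18% of all genes higher and 2.50% lower, with a median of -0.41 (0.15 in the other cells). From P7 to P14 9 of 10 were higher, against 16.6% of all genes, and from P1 to P14 6 of 10. These counts relative to the median were 7 and 5. Nos3, the endothelial nitric oxide synthase, was at 61.2, 63.3 and 244 CPM, and Klf2, a transcription factor induced by flow, at 16.4, 7.52 and 40.3 CPM. Thbd, an anticoagulant receptor, was at 89.0, 60.8 and 328 CPM.

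Further lists were counted in the same way. Of endothelial transcription factors 10 of 28 were higher from P1 to P14 and 0 lower, and relative to the median 5 higher and 1 lower were counted. Lmo2, a cofactor of blood and vessel formation, was at 672, 970.1 and 431 CPM. Of basement membrane and integrin genes 7 of 20 were higher, among them Lama5, a laminin chain (32.2, 52.0 and 115 CPM), and Col4a2 was lower. Relative to the median 2 higher and 1 lower remained in that list. In the list of antigen presentation and interferon 2 of 17 were higher (Ifitm1 and Psmb9) and Ifi27 was lower, a smaller share than the 21.1% of all genes higher, and relative to the median 1 higher and 2 lower were counted. Of 11 glycolytic genes Pfkfb3 was higher (13.9, 7.52 and 63.4 CPM), and Ldha (499, 463 and 162 CPM) and Pgk1 (247, 197 and 80.6 CPM) were lower, against 21.1% of all genes higher and 4.76% lower. The median of the glycolytic genes was -0.55 against -0.01 in the other cells, and relative to the median of all genes 1 higher and 3 lower were counted. In the hemostasis list 6 of 13 were higher, and in the list of lipid uptake 6 of 11, against 21.1% of all genes. Relative to the median the higher genes in these lists numbered 4 and 3. Fabp4, a fatty acid binding protein, was at 122, 1.88 and 300.5 CPM. It was found in 5, 1 and 29 members, 434 of its 455 UMIs at P14 lay in group 4 of the P14 members described below, and its direction from P1 to P7 turned when members with 3 or more UMIs of another cell type were left out.

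Part of the genes of dividing cells were lower at later stages, and none was higher by 2-fold. Of those tested, 4 of 10 were lower from P1 to P7, 4 of 9 from P7 to P14 and 7 of 10 from P1 to P14, where 2.50%, 4.69% and 4.76% of all genes were lower. With the all-gene median subtracted, 4, 7 and 10 were lower. The median from P1 to P14 was -1.93 against 0.68 in the other cells. Mki67, a marker of cycling cells, was at 86.5, 43.9 and 18.5 CPM in members and 82.1, 56.5 and 124 CPM in the other cells. Top2a, a topoisomerase of dividing cells, was at 93.4, 25.1 and 9.25 CPM, and the kinetochore gene Cenpf at 153, 43.9 and 13.2 CPM. At P14 all 10 tested genes of the list were 2-fold or more lower in members than in the other cells, as were 841 of 9251 genes in all (9.09%). At least 2 UMIs of the list were held by 12.2%, 5.73% and 0.958% of thinned members.

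Immediate early genes, which tissue dissociation is known to induce, were lower after P1 in part of the list. From P1 to P7, 7 of 16 were lower and 1 higher, and the same counts were found from P1 to P14. From P7 to P14, 5 were higher and 1 lower. Over all genes 2.50% were lower from P1 to P7, 4.76% lower from P1 to P14 and 16.6% higher from P7 to P14. With the median of all genes subtracted, 1 higher and 9 lower were counted from P1 to P7, 2 higher and 1 lower from P7 to P14 and 0 higher and 7 lower from P1 to P14. From P1 to P7 and from P1 to P14 the medians were -0.93 and -0.26 in members, against -0.77 and -0.14 in the other cells. Jun was at 1099, 411 and 421 CPM and Atf3, a stress-induced factor, at 148, 16.9 and 18.5 CPM. Cxcl1, a chemokine for neutrophils, was at 125, 7.52 and 8.59 CPM. The part of dissociation in these values was not tested.

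**Figure D4:**
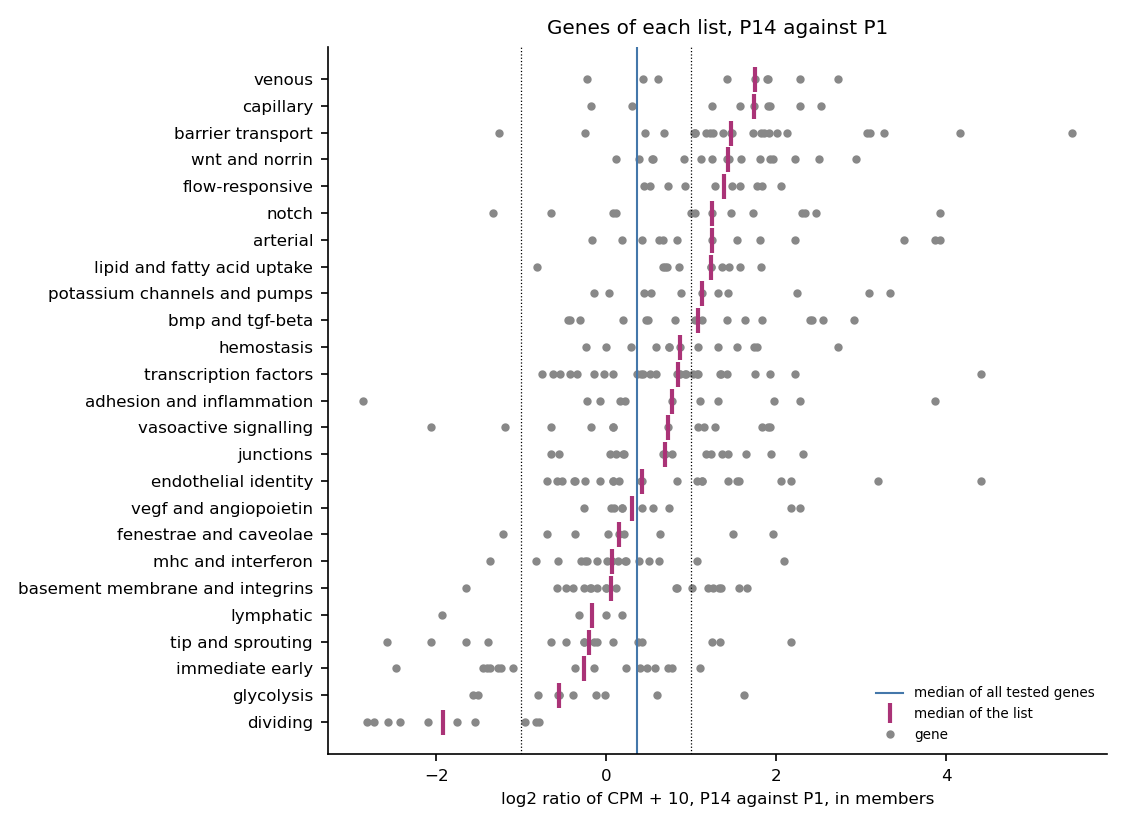
Log2 ratio of CPM plus 10 from P1 to P14 in members (x axis) for every tested gene of 25 lists (y axis). Grey points are genes, purple ticks are medians of lists, the blue line is the median of all tested genes (0.36) and dotted lines mark 2-fold. The list of genes the study names (median 2.01) is not drawn. Of the lists drawn, the venous, capillary and barrier transport lists are highest. The dividing list is lowest (-1.93).

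Several of the genes that differed most between stages belong to other cell types. Higher at P7 than at P1 were Ccn3, Otor, Ptn, Col9a2, Col11a2, Serpinf1 and Coch. Otor was at 459, 4112 and 76.6 CPM, a P7 to P1 ratio of 3.14 with and 1.06 without the members selected on Cldn5 alone. For Ccn3, a matricellular protein, the ratio was 3.58 with and 1.19 without these cells, and for Pmch 4.15 and 0.51. For Ptn, a secreted growth factor, it was 2.75 and 1.14, for the collagen genes Col9a2 and Col11a2 3.23 and 3.38 with and 1.92 and 1.83 without, for Serpinf1 3.08 and 0.82, and for Coch 2.85 and 1.10. The ratios of these genes were thus smaller without the 28 cells of P7 and the 1 of P1. Coch, a protein of cochlear fibrocytes, was at 2.53, 80.3 and 1176 CPM in members and 78.6, 59.6 and 6438 CPM in the other cells. At P7 it was at 16.9 CPM without the 28 cells. At P14 Coch was at 3345 CPM in the 161 members of groups 7, 9, 10, 11 and 12, described below, and at 399 CPM in the remaining 808, in both cases under the level of the other cells.

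Other genes that differed most were higher in the members of P14 than in the other cells of P14, among them Eln, Cxcl12, Vwf, Abcb4, Slco1a4, Myof, Acer2, Tnfsf10, Jag1 and Atp10a. Myof, a protein of membrane repair, was at 20.8, 9.41 and 296 CPM, and Acer2, an alkaline ceramidase, at 72.6, 25.7 and 462 CPM. Tnfsf10, a death receptor ligand, was at 2.53, 15.7 and 197 CPM in members and 0.0519, 0.186 and 12.6 CPM in the other cells. Cst3, the secreted protease inhibitor cystatin C, was at 1812, 1259 and 11698 CPM in members and 999.6, 1569 and 5732 CPM in the other cells, but a Cst3 UMI was also found in 126 of 174, 127 of 149 and 182 of 239 thinned leukocytes. Lower at P14, beside Apln and Esm1, were RGD1565166 (188, 132 and 26.4 CPM) and Hlx, a homeobox factor (79.6, 177 and 46.2 CPM). Hbb, a beta globin, was at 579.6, 347 and 64.7 CPM, and its direction from P1 to P14 turned when members with 3 or more UMIs of another cell type were left out.

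The 969 members of P14 were divided into 12 groups by clustering their own profiles. The genes that lead a group come from the same cells and are a description, and the groups carry no cell type names. Groups 1, 2 and 8, with 475 cells (49.0%), had Slco1a4 at 4200 CPM, Slc2a1 at 2295 CPM, Abcb4 at 1734 CPM and Plvap at 335 CPM. Group 1 (241 cells) was led by Hba-a2, an alpha globin of erythroid cells, at 4936 against 540.0 CPM in the remaining members, and by LOC103694857, at 7112 against 859 CPM. These were found in 31.1% and 36.1% of its cells, and hemoglobin made up 1.60% of the UMIs of the group. Over all P14 members 3 cells held 81.3% of the hemoglobin UMIs. Slco1a4, Csrp2 and Prom1 led group 2 (178 cells). Group 8 (56 cells) was led by Cxcl12, at 5608 against 1144 CPM in the remaining members. Group 6 (75 cells) was led by Tfrc, at 1994 against 66.8 CPM. Car4, a carbonic anhydrase, was at 442 against 7.81 CPM, Slc16a1, a monocarboxylate carrier, at 395 against 4.97 CPM, and Bsg, its chaperone, at 8858 against 1232 CPM. Group 6 held 212 of the 306 Tfrc UMIs of the P14 members and 42 of the 49 of Slc16a1.

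Group 5 (78 cells) was led by Cytl1 and Eln, the latter at 7739 against 513 CPM. Fbln5, which helps assemble elastic fibres, was at 896 against 27.4 CPM, and group 5 held 33 of the 41 Gja5 UMIs. Group 3 (91 cells) was led by Adgrg6 and Slco2a1, a prostaglandin carrier, with Vwf at 3971 against 692 CPM, Plvap at 2268 CPM and Nr2f2, a factor of venous identity, at 255 CPM. Nr2f2 had 0 UMIs in groups 5 and 8. It was also at 235 CPM in group 7 (40 UMIs) and at 201 CPM in group 12 (4 UMIs). Group 4 (89 cells) was led by Gpihbp1, the lipase anchor of capillaries, at 1065 against 1.51 CPM, and by Rbp7 and Fam167b. Plvap was at 3137 against 471 CPM there, and Aplnr at 950.5 CPM. Slco1a4 in group 4 was at 161 CPM and Cldn5 at 545 CPM, in both cases the lowest of the 12 groups.

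The remaining 161 cells (16.6%) were in groups 7, 9, 10, 11 and 12, whose leading genes included those of fibroblasts, myelin, pericytes and lymphocytes. Group 7 (73 cells) was led by Ptgds, Col1a1 and Dcn, genes of fibroblasts, and Pmp22 and Mbp, genes of myelin, were among the leading genes of group 9 (32 cells). Vtn and Abcc9, the second a channel subunit of pericytes, led group 10 (30 cells). Ighm, the heavy chain of immunoglobulin M, was among the leading genes of group 11 (16 cells), and Otor and Gsn led group 12 (10 cells). In these 161 cells together Slco1a4 was at 1541 CPM and Plvap at 190.4 CPM, so endothelial transcripts lay beside the others. They were fewer in group 12, with 1 Plvap UMI and a median of 1 of the 12 endothelial markers per cell. That median was 4 in group 7 and 5 in groups 9, 10 and 11. Scrublet, which looks for droplets with more than 1 cell, marked 11 members at P1 (7.38%, against 4.87% of kept cells) and 19 at P7 (9.55%, against 6.16%). At P14 it marked 0.0379% of kept cells and was not used.

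At resolution 0.5 the clustering gave 9 groups and at 1.2 it gave 14, both settings chosen after the data were seen. Groups 3, 4, 5 and 6 kept 93.4%, 100%, 97.4% and 89.3% of their cells in 1 group at 0.5. Most cells of groups 1 and 2 and all of group 8 joined 1 group of 463 cells there, of which group 8 was 12.1%, and group 12 joined the cells of group 7. At 1.2, groups 5 and 6 kept 97.4% and 94.7% of their cells together, while groups 1, 2, 3, 4 and 7 had 65.6%, 58.4%, 69.2%, 57.3% and 46.6% in their largest piece.

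**Figure D5:**
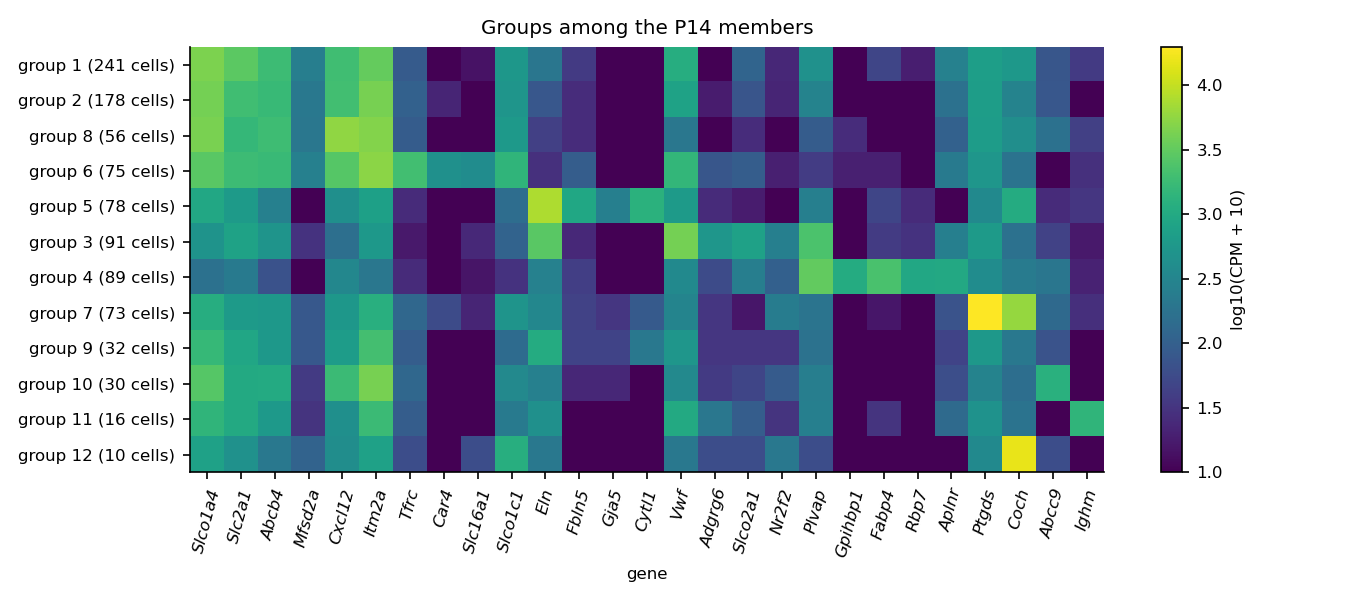
Level as log10 of CPM plus 10 (colour) of 27 genes (x axis) in the 12 groups of P14 members (y axis, with cell numbers). Slco1a4 and Slc2a1 are high in groups 1, 2, 8 and 6, Eln and Gja5 in group 5, Vwf in group 3, and Plvap in groups 3 and 4.

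Pairs of genes were then counted in single members, as a description. After thinning, a Slco1a4 UMI was found in 41.1% of 197 P14 members with Plvap and in 73.9% of 429 without it. At P7 the shares were 17 of 112 (15.2%) and 12 of 80. For Slc2a1 the shares with and without Plvap were 38.8% of 85 and 40.3% of 62 at P1, 59.8% of 112 and 28 of 80 at P7, and 40.1% of 197 and 63.4% of 429 at P14, so the order at P7 was the opposite of that at P14. For Eln at P14, Slco1a4 was found in 42.2% of 154 members with Eln and 70.6% of 472 without, whereas with Vwf the shares were 63.3% of 267 and 63.8% of 359. At least 2 UMIs of the arterial list were held by 23.8%, 38.0% and 75.7% of thinned members, of the venous list by 11.6%, 20.8% and 47.8%, and of the lymphatic list by 2.04%, 1.04% and 0.319%. These list shares have no leukocyte share beside them. Mgp, of the arterial list, was at 67.6, 87.2 and 865 CPM in members and 921, 609 and 1703 CPM in the other cells. Prox1, the factor that sets lymphatic identity, had 2, 1 and 0 UMIs over all members.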

How the data were processed

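Single-cell RNA was measured in 3 libraries (10x, 3′ chemistry), 1 per stage from 40 pooled rats. The authors made the matrices with Cell Ranger on build rn6, and their notes also name bcl2fastq and Seurat 3.1.1. The deposited values are UMI counts, whole and not normalized, for 32623 genes. The study's methods give 34927 cells after quality control, which is the number of barcodes in the files; its stated limits on genes and mitochondrial share leave 30641. From these, members were taken as described in the report, and their UMIs were summed per stage. Members and gene lists were chosen with earlier results of these data known. Since 1 library stands for a stage, no test across stages was run, and intervals (exact Poisson and Clopper-Pearson, 95%) cover counting error only.

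Levels were scaled to CPM and ratios taken with 10 CPM added. The text names genes of 26 lists (443 of 462 listed entries were in the matrices and the others are not analysed here), the 15 genes with the largest ratio to other cells per stage among those with a UMI in 25% of members, and the 15 highest and lowest between stages among genes at 50 CPM and in 10% of members, whose ratio differed by 1 or more from that in other cells. The text also names leading genes of the P14 groups and further genes added by choice. Leukocytes were chosen on 5 genes and mural cells on 7, and members were left out of both. For shares, cells were thinned to 1000 UMIs, which left out 2, 7 and 343 members. Doublets were not removed in the main values. P14 members were clustered on 1000 genes, 15 components and 15 neighbors by Leiden at resolution 0.8. Python 3.11.15, numpy 2.4.6, scipy 1.17.1, pandas 2.3.3, scanpy 1.11.5 and leidenalg 0.10.2 were used, and the ratios were tested on simulated data. Alternatives covered the limits of the selection, doublets, depth, scaling, added CPM, averaging and members with RNA of other cell types. Some genes are not reported here.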

Additional observations from a re-analysis of the deposited data

Results flagged for a closer look

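Genes of the lists, genes picked by the rule for named genes and further genes added by choice were searched. Cytl1, Hba-a3 and LOC103694857 were among those added. Some genes differed from the other cells in opposite directions at 2 stages, by 2-fold or more each time. These differences between stages were not tested, since each stage has 1 library, and values are log2 ratios of members to other cells. Fbln5, which helps assemble elastic fibres, differed by 2.54 at P14 and by -1.53 at P7. Cytl1, a secreted protein, differed by 3.11 at P14 and -3.03 at P7. Sema3c, a secreted guidance protein, differed by 1.55 at P14 and -1.02 at P7. Ltbp4, a binder of latent TGF-beta, differed by 1.35 at P14 and -1.10 at P7. Ccnb1, a cyclin of mitosis, differed by 1.07 at P1 and -1.71 at P14.

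Mt2A, a metallothionein, differed by 1.07 at P1 and -1.33 at P7, and Lgals3, a galectin, by 1.28 at P1 and -1.30 at P7. The alpha globin Hba-a2 has 2 entries, which differed by 3.85 and 3.80 at P1 and by -1.22 and -1.17 at P14. Hba-a3 differed by 2.70 at P1 and -1.47 at P14, LOC689064 by 3.77 and -1.25, and LOC103694857 by 3.67 and -1.21. At P1, 11 members held 96.6% of the hemoglobin UMIs.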

How the results depend on the processing

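For 560 ratios of named genes, 16 alternatives gave 8960 values, of which 8326 stayed on the same side of 2-fold, 616 crossed it and 18 changed sign. No paired analysis was possible because each stage has 1 library. The cause of the changes below was not tested. The share of members at P1, P7 and P14 was 1.69%, 2.50% and 19.8% with a limit of 10 per 10000, 0.861%, 1.10% and 15.1% with 40, and 0.869%, 1.11% and 14.9% without Cldn5 in the sum. It was 13.7% at P14 with cells under 1000 UMIs left out and the rest thinned (13.8% in the same cells without thinning), and 1.36% at P7 without members selected on Cldn5 alone, the latter chosen after seeing the data. Thinning before the selection gave 1587 higher and 964 lower genes from P1 to P7, and 712 lower from P7 to P14 and 704 from P1 to P14. Median-of-ratios scaling gave 618 lower genes from P1 to P14, and scaling without mitochondrial, ribosomal protein and hemoglobin genes 719 from P7 to P14 and 745 from P1 to P14. With 1 CPM added, 1398 genes were higher in P14 members than in other cells, 965 were higher and 504 lower from P1 to P7, 2395 and 740 from P7 to P14, and 2869 and 664 from P1 to P14. With 50 CPM added, 279, 260 and 395 genes were higher than in other cells at P1, P7 and P14, 45 were higher and 37 lower from P1 to P7, 351 and 132 from P7 to P14, and 428 and 158 from P1 to P14. The mean of each cell's CPM gave 560 higher genes from P1 to P7.

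Signs changed in these ratios. Pdpn was -0.13 from P1 to P7 with a limit of 40 and 0.28 from P7 to P14 without Cldn5. After thinning, Id2 was -0.0054 and Aqp1 0.27 from P1 to P7, Cx3cl1 -0.0057 from P1 to P14 and Tcf15 0.52 from P7 to P14. Without members with 3 or more UMIs of another cell type's list (86, 71 and 701 remained), both Hba-a2 entries (0.032 and 1.32), Pdpn (-0.54), Cyp1b1 (-0.38), Fabp4 (0.34) and Gjb2 (-0.10) changed from P1 to P7. In the same setting Wif1 (0.095), LOC689064 (0.18) and Pdpn (0.52) changed from P7 to P14, and Hbb (0.69), Hba-a2 (0.74) and LOC689064 (0.14) from P1 to P14. Depth limits the P14 cells most, where 343 of 969 members held fewer than 1000 UMIs.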
